A study of Mus musculus with 12 samples.

Results

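The cytokine receptors that use the common gamma chain were examined in helper T cells: Il2rg, Il2rb, Il2ra, Il15ra, Il7r, Il4ra, Il21r and Il9r. They were taken by gene symbol from a table of mean signal over mouse gene areas, and the 8 symbols stood on 8 of its 37752 rows. All 8 lay above the filter on low signal used for the background counts. The libraries came from DNA immunoprecipitation: genomic DNA was sheared and denatured, and the fragments bound by an antibody were sequenced. For each of 5 cell types (naive T cells and Th1, Th2, iTreg and Th17 cells) there was 1 library with an antibody against 5-methylcytosine (5mC) and 1 with an antibody against 5-hydroxymethylcytosine (5hmC). Th17 cells also gave 1 control IgG library and 1 library of input DNA, so the 12 libraries formed groups of 1. The series names CD2(Cre)Tet2(f/f) mice, in which Cre under the lymphocyte promoter of CD2 removes Tet2, and wild-type littermates, on a mixed background. The labels do not tie a library to either genotype and give no age, culture time or number of animals.

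Receptors of this family share the gamma chain encoded by Il2rg, which carries the kinase Jak3. Each adds 1 or more other chains that bind the cytokine, and 1 of these carries Jak1. The pathway then works through Stat proteins, mainly Stat5 for IL-2, IL-7, IL-9 and IL-15, Stat6 for IL-4 and Stat3 for IL-21. Naive T cells depend on IL-7 to survive, activated T cells make Il2ra (CD25) to bind IL-2 with high affinity, and IL-4 drives Th2 fate. 5hmC is made from 5mC by Tet enzymes and is known to lie in the bodies and enhancers of many active genes, while neither mark is a measure of RNA.

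The bases that can carry these marks are mostly cytosines before guanine (CpG), so the stretch of 250 bases before the gene start was read from RefSeq for 4 genes: Il2ra, with its 5hmC lowest in naive cells, Il7r and Il21r, with theirs highest there, and Il4ra, with the highest 5hmC of the family. Coordinates are on GRCm38.p6, CpG is in capitals, and each sequence runs 5′ to 3′ in the direction of the gene. The windows are Il2ra, chr2:11642542-11642791, plus strand; Il7r, chr15:9529877-9530126, minus strand; Il4ra, chr7:125552021-125552270, plus strand; and Il21r, chr7:125603179-125603428, plus strand.
Il2ra: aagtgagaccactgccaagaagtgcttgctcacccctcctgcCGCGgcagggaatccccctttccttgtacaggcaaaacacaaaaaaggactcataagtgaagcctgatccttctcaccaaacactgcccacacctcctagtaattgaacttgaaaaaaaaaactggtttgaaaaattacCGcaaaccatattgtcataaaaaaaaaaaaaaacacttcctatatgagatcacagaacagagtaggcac
Il7r: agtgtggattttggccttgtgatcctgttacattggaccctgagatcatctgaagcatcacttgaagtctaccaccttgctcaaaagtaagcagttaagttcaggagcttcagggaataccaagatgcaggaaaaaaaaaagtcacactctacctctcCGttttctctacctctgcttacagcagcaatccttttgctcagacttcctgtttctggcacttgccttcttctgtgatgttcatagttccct
Il4ra: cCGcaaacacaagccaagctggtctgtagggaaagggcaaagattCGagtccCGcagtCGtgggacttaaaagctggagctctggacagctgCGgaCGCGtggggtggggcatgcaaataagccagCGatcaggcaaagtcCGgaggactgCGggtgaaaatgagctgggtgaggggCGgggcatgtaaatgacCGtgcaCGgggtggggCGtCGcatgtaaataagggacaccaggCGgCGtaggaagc
Il21r: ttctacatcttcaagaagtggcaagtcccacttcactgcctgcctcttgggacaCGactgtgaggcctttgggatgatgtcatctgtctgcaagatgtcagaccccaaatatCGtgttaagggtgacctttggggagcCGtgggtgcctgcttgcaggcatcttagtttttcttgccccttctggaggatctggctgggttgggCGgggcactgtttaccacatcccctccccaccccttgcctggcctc
Il7r held 1 CpG, Il2ra 3, Il21r 4 and Il4ra 17. Over the 32851 RefSeq promoter windows of this length the median was 6, with quartiles of 2 and 16, so Il7r lay below the lower quartile and Il4ra above the upper one. Of the other members, Il2rg held 3 CpG and Il9r 5, while the 2 starts of Il15ra held 2 and 12. The letters TTCNNNGAA, the core to which Stat5 is known to bind and which reads the same on both strands, were found only in the window of Il7r among the 7 members with a window (all but Il2rb), as TTCAGGGAA beginning 142 bases before the start. This core stood in 7.0% of all windows, and a match of letters does not show binding. The deposited signal was not resolved at these windows: it is 1 mean per gene area, given on mm9.

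The scale and the labels of the libraries bear on what follows. The median signal over all gene areas was 12.0 in the naive 5hmC library and 9.9 to 11.0 in the other 4, and all gene areas above the filter had a median log2 difference from naive of -0.27 for the mean of the 4 differentiated libraries. Division by median-ratio factors moved every 5hmC difference from naive up by 0.15 to 0.30 on the log2 scale, least in Th2 and most in the library labelled Th17. Against their labels, Il17a and Il17f, the cytokine genes of Th17 cells, had 5hmC signals of 31.3 and 32.8 in the library labelled iTreg and of 8.8 and 5.3 in the library labelled Th17. Foxp3, the factor of regulatory T cells, had 25.3 and 30.9 in the same order. These 2 libraries are therefore called by their labels, and the mean differences from naive are also given for Th1 and Th2 alone. Ifng was highest in Th1 (22.6 against 8.9 to 14.3) and Il4 in Th2 (82.6 against 20.2 to 26.2), as labelled, whereas Gata3, the factor of Th2 cells, was highest in the library labelled iTreg (194.9, and 75.2 in Th2). Marker genes of B cells, myeloid cells and CD8 T or NK cells also carried 5hmC signal, from 94.3 to 228.3, 62.3 to 107.5 and 76.1 to 187.8 when 4 genes each were summed, and each sum was highest in the naive library and lowest in the library labelled Th17. For the mean of the 4 differentiated libraries 3 of 4 B cell, 3 of 4 myeloid and 4 of 4 CD8 T or NK markers lay below naive, as did 3 of 3 T cell markers (Cd3e, Cd4 and Lat), and none of these markers was at 0. The part of other cells in the results was not tested, and in these bulk samples fewer cells of a type and less 5hmC per cell cannot be told apart.

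The 8 receptor genes split by direction. Il2ra carried more 5hmC in each of the 4 differentiated libraries than in naive cells, and Il2rb in 3 of them. Il2rg, Il7r, Il4ra, Il21r and Il9r carried less in each of the 4. For Il2ra, Il2rg, Il7r and Il21r each of these directions was the same with median-ratio factors and with division by library means. Il9r in Th2 turned from -0.03 to 0.12 and 0.28 with these scalings, and Il4ra in Th2 from -0.31 to 0.01 and Il2rb in the library labelled Th17 from -0.34 to 0.17 with library means. For the mean of the 4 libraries, Il21r, Il2rg and Il7r were at least 2-fold lower than naive, 3 of 8 receptors against 16.0% of all gene areas, and 0 of 8 were at least 2-fold higher, against 2.94%. Below naive at all were 6 of 8, against 64.4%. The median over the 8 was -0.67 on the log2 scale, below the -0.27 of all gene areas. It was -0.47 against -0.07 with median-ratio factors and -0.28 against 0.12 with library means, and the count at least 2-fold lower was then 2 (10.1% of all gene areas) and 1 (6.36%). Among gene areas of at least 3000 bp whose mean 5hmC lay in the range of the receptors (14.4 to 106.9), the share at least 2-fold lower was 21.1%, the share at least 2-fold higher 0.686% and the share below naive 73.7%. With 1 library per group there is no replicate, so no difference between cell types could be tested, and whether neighbouring levels in an order differ beyond replicate spread is unknown. Without the libraries labelled iTreg and Th17, 1 of 8 receptors (Il21r) was at least 2-fold lower, against 14.1% of all gene areas, and 5 of 8 lay below naive, against 63.4%. The median of the 8 was then -0.37, against -0.23 for all gene areas, a smaller gap than with all 4 libraries.

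**Figure D1:**
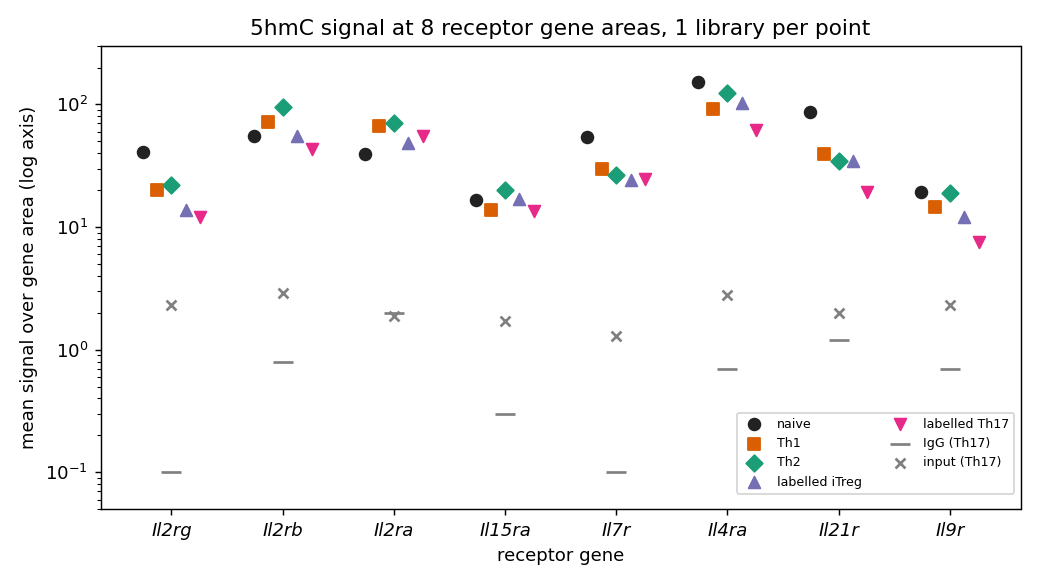
5hmC signal of the 8 receptor gene areas (mean signal per gene area, log axis), 1 point per library, with the IgG and input libraries of Th17 cells in grey. The naive point is highest at Il2rg, Il7r, Il4ra, Il21r and Il9r and lowest at Il2ra as deposited, though Th2 passes naive at Il9r under both other scalings and at Il4ra with library means, and all 5hmC points lie above IgG and input.

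The shared chains differed in direction. Il2rg, the gamma chain itself (gene ID 16186, chromosome X, 98459725 to 98463544, mm9, minus strand), reached a 5hmC signal of 41.3 in naive cells, 19.9 in Th1, 22.1 in Th2, 13.9 in the library labelled iTreg and 12.1 in that labelled Th17. Naive was thus highest, and the other 4 lay at 29.3% to 53.5% of it. Its log2 difference from naive, taken after adding 0.2 to each signal, was -1.31 for the mean of the 4 and -0.97 for Th1 and Th2 alone. At 3820 bp it was the shortest of the 8 areas, so its mean rests on the fewest bases. Il2rb, the signalling chain shared by the IL-2 and IL-15 receptors (16185, chromosome 15, 78310977 to 78325495, minus strand), had 54.9 in naive cells, 71.3 in Th1, 94.9 in Th2, 55.5 in the library labelled iTreg and 43.3 in that labelled Th17. Th2 was highest and the library labelled Th17 lowest, and the library labelled iTreg lay within 0.02 of naive on the log2 scale. The Th2 level was 1.73-fold that of naive, and 7.86% of all gene areas had a Th2 difference from naive at least as high. The mean of the 4 was 0.21 above naive. It was 0.02 without Th2, 0.39 without the library labelled Th17 and 0.58 for Th1 and Th2 alone, so its size depended on which libraries were taken. The measured area covers less of Il2rb than RefSeq's gene of the later assembly, which is 32366 bp long against 14519 bp here.

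The private chain of the IL-2 receptor was the one member with its lowest 5hmC in naive cells. Il2ra (16184, chromosome 2, 11564418 to 11614820, plus strand) had 39.2 in naive cells, 66.3 in Th1, 70.5 in Th2, 48.6 in the library labelled iTreg and 55.4 in that labelled Th17. All 4 differentiated libraries lay above naive, by 1.24-fold to 1.80-fold, and 18.4% of all gene areas had naive as the lowest of the 5. Relative to the other gene areas of its library, Il2ra went from 86.0% of areas at or below it in naive cells to between 96.8% and 98.8% in the others. The mean of the 4 was 0.60 above naive on the log2 scale, a value that 9.47% of gene areas reached or passed, and it was 0.80 for Th1 and Th2 alone. Il2ra also had the highest IgG signal of the 8, at 2.0, and its difference was 0.63 after IgG was subtracted. Il15ra, the IL-15 binding chain next to it (16169, chromosome 2, 11627162 to 11655588, plus strand), had 16.5 in naive cells, 13.9 in Th1, 20.1 in Th2, 16.9 in the library labelled iTreg and 13.5 in that labelled Th17. This was the flattest profile of the 8, with the highest library 1.49-fold above the lowest. Its mean difference of -0.05 turned to 0.14 with median-ratio factors and to 0.33 when libraries were divided by their means, and it was 0.02 for Th1 and Th2 alone, so its direction depended on the scaling and on the libraries taken.

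Il7r and Il21r stood lower in every differentiated library. Il7r, the IL-7 binding chain (16197, chromosome 15, 9435913 to 9459630, minus strand), had 53.8 in naive cells, 29.6 in Th1, 26.8 in Th2, 24.0 in the library labelled iTreg and 24.5 in that labelled Th17. Naive stood well above a narrow band of the other 4, which lay at 44.6% to 55.0% of it. The mean difference was -1.04, just past the 2-fold rule, and -0.84 with median-ratio factors, on the other side of it. In Th2 alone it lay exactly on the rule. It was -0.93 for Th1 and Th2 alone. Il21r, the private chain of the IL-21 receptor (60504, chromosome 7, 132746942 to 132777083, plus strand), had 87.1 in naive cells, 39.5 in Th1, 34.9 in Th2, 34.8 in the library labelled iTreg and 19.2 in that labelled Th17. Naive was 2.21-fold above the next library and 4.54-fold above the lowest, the widest range of the 8 members. Its mean difference of -1.48 was reached or passed downward by 4.64% of gene areas, and the value for Th1 and Th2 alone was -1.23.

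Il4ra carried the highest 5hmC signal per length of the 8 receptors in every library, and Il9r was among the lowest. Il4ra, which binds IL-4 and also serves the IL-13 receptor (16190, chromosome 7, 132695795 to 132722987, plus strand), had 153.7 in naive cells, 91.3 in Th1, 124.3 in Th2, 103.0 in the library labelled iTreg and 62.3 in that labelled Th17. Between 98.8% and 99.7% of gene areas lay at or below it in each library. Among the differentiated cells Th2 was highest, at 80.9% of naive, and the library labelled Th17 lowest, at 40.5%. Il9r, the private chain of the IL-9 receptor (16199, chromosome 11, 32088996 to 32100278, minus strand), had 19.2 in naive cells, 14.5 in Th1, 18.8 in Th2, 12.0 in the library labelled iTreg and 7.6 in that labelled Th17. Naive and Th2 lay close together, in an order that turned with both other scalings, and the library labelled Th17 was lowest. As for Il2rb, the measured area of Il9r was shorter than RefSeq's gene of the later assembly, 11283 bp against 17740 bp. The mean differences were -0.73 for Il4ra and -0.60 for Il9r, and -0.53 and -0.22 for Th1 and Th2 alone, so the value of Il9r rested mostly on the libraries labelled iTreg and Th17, and it was -0.37 without that labelled Th17.

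**Figure D2:**
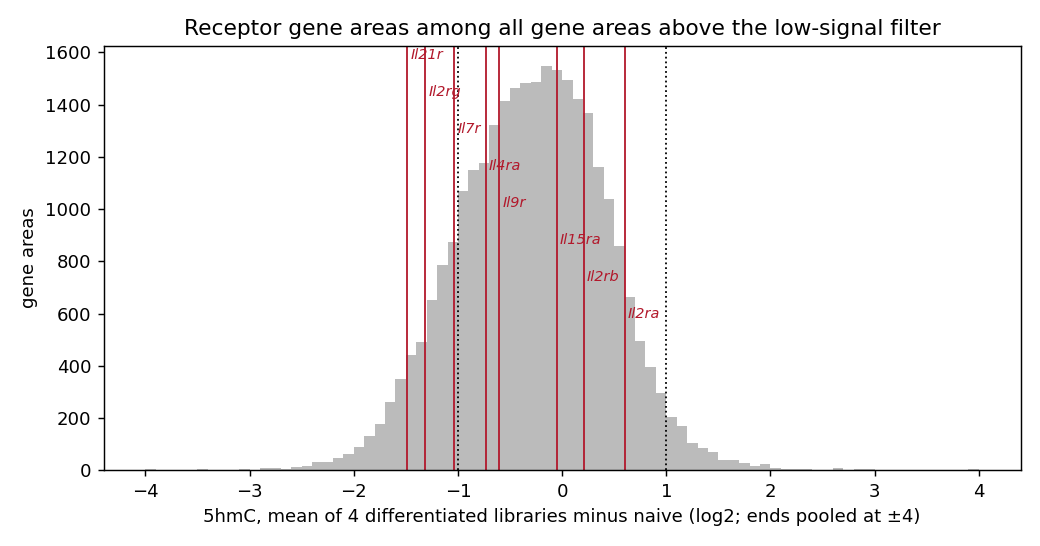
Histogram of the log2 difference in 5hmC between the mean of the 4 differentiated libraries and naive for the 28159 gene areas above the filter, with each receptor as a red line and the 2-fold rule dotted. Il21r, Il2rg and Il7r lie left of the lower rule, and no receptor passes the upper one.

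Single libraries were counted next. At least 2-fold lower than naive were 2 of 8 in Th1 (Il2rg and Il21r; 16.1% of all gene areas), 2 in Th2 (Il7r and Il21r; 14.8%), 3 in the library labelled iTreg (Il2rg, Il7r and Il21r; 14.7%) and 5 in that labelled Th17 (Il2rg, Il7r, Il4ra, Il21r and Il9r; 25.6%). At least 2-fold higher were 0 of 8 in each, against 4.34%, 4.85%, 4.52% and 4.63%. Below naive by any amount were 6, 5, 5 and 7 of 8 in the same order, against 63.7%, 61.4%, 62.3% and 65.8%. These 4 comparisons share the naive library. The naive library was highest for 5 of 8 receptors, against 44.9% of all gene areas (60.1% of those of like length and 5hmC, as above), and Th2 for the other 3 (Il2rb, Il2ra and Il15ra), against 15.6%. The library labelled Th17 was lowest for 6 of 8, against 36.3% (45.9% of those of like length and 5hmC), and the library labelled iTreg for Il7r, against 13.2%. Th2 lay above Th1 at 6 of 8 receptors, all but Il7r and Il21r, against 54.7% of all gene areas. The library labelled iTreg lay above that labelled Th17 at 6 of 8, all but Il2ra and Il7r, against 63.1%.

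Some receptor genes are neighbours in the genome. As deposited, Il2ra and Il15ra differed in which library was lowest in 5hmC, naive for Il2ra and that labelled Th17 for Il15ra. Il4ra and Il21r both had naive highest and the library labelled Th17 lowest. Each profile rests on 1 library per cell type, so differences within a pair were not tested. Il2ra and Il15ra are separated by 12.3 kb on chromosome 2. Il2ra had a higher difference from naive than all 6 of its neighbours (the 3 nearest named gene areas of at least 3000 bp on each side), which ran from -1.09 to 0.01. At one end of that stretch the kinase gene Prkcq stood at 51.7 in the naive library against 18.7 to 28.8 elsewhere, the opposite of Il2ra. Il4ra and Il21r are separated by 24.0 kb on chromosome 7. Il21r had a lower difference than all 6 of its neighbours, but Jmjd5, Nsmce1 and Xpo6 in the same stretch were also at least 2-fold lower than naive, with -1.04, -1.12 and -1.22, and Il4ra lay in the middle of its 6, with 3 lower and 3 higher. No neighbour of Il7r had a like difference: the 6 ran from -0.33 to 0.39, with naive signals of 6.3 to 20.9 against its 53.8. Il2rg lay 3.5 kb from Foxo4, a forkhead factor, whose signal was 59.9 in the naive library against 17.9 to 24.8 elsewhere (-1.52), while its other 5 neighbours lay above Il2rg, between -0.56 and 0.18. Near Il2rb, Rac2, a GTPase of blood cells, stood at 222.0 in the naive library against 82.6 to 105.4 elsewhere. Gene areas this close can share signal at their edges, which was not tested.

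**Figure D3:**
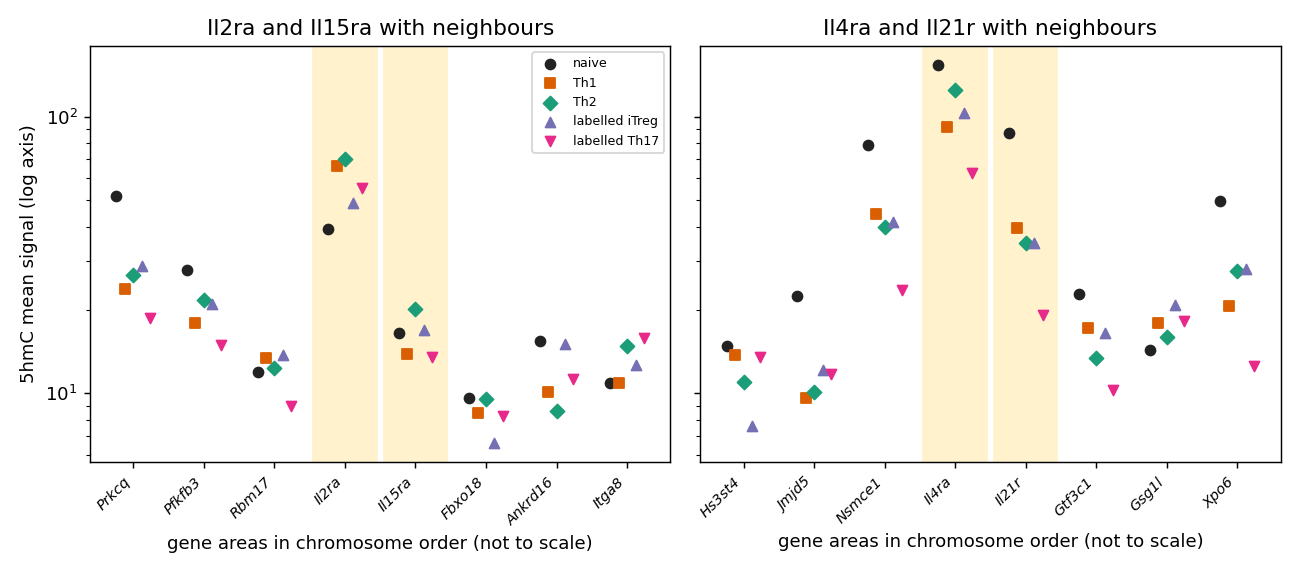
5hmC signal (log axis) at the adjacent receptor pairs, shaded, and at the neighbouring gene areas in chromosome order, 1 point per library. Naive is the lowest point at Il2ra and the highest at Il4ra and Il21r, and Il2ra stands above its right-hand neighbours in every library.

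The genes with the most similar 5hmC profile were looked up for each receptor among 15408 gene areas, as the smallest root mean square distance of log2 signal over the 5 libraries after each gene was centred on its own mean. Each distance rests on 5 points that share their libraries. Nearest to Il2ra were Cbln4 and Nkain1, at distances of 0.032 and 0.035; Nkain1 had 12.8 in naive cells, 22.7 in Th1, 23.1 in Th2, 15.5 in the library labelled iTreg and 18.7 in that labelled Th17. Nearest to Il2rb were Zfp777 and Rnf207 (0.068 and 0.071), to Il2rg Nktr and Nsa2 (0.032 and 0.046), and to Il15ra Zfp275 and Sybu (0.029 and 0.032). Nearest to Il7r were Mrps15 and Slc25a34 (0.035 and 0.047), to Il21r Wbp7 and Rhog (0.038 and 0.050), to Il4ra Tspyl2 and Tst (0.027 and 0.031), and to Il9r Amigo1 and Ctsz (0.042 and 0.057). Within the family Il4ra and Il9r were closest to each other, at 0.175, and Il2ra and Il21r farthest apart, at 0.902.

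Other genes of the pathway split as well. Of 8 cytokine genes (Il2, Il4, Il7, Il9, Il15, Il21, Il13 and Tslp), 1 was at least 2-fold higher than naive for the mean of the 4 libraries and 0 lower, and the median difference was 0.17. The higher one was Il15, from 4.3 to between 7.0 and 10.7, a low signal; Tslp and Il9 had the lowest values, -0.58 and -0.11, and Il13 the next highest, 0.31. Of 10 signalling genes, 5 were at least 2-fold lower, Jak1, Stat5b, Stat6 and Socs3 among them, 0 higher, and the median was -0.90. Socs3, a feedback inhibitor, stood at 74.3 in naive cells, 54.4 in Th1, 26.7 in Th2, 29.4 in the library labelled iTreg and 6.7 in that labelled Th17. Cish, a feedback inhibitor that Stat5 is known to induce, was the one signalling gene above naive, with 97.2 there and 138.8, 218.6, 104.3 and 135.4 in the others, and Stat3 came next at -0.27. Both partner chains, Il13ra1 of the IL-13 receptor and Crlf2 of the TSLP receptor, were less than 2-fold from naive (-0.03 and -0.70). Of 33 other cytokine receptor genes, 10 were at least 2-fold lower and 0 higher, with a median of -0.46; Il17rb and Il6ra were lowest (-1.76 and -1.55) and Csf2rb and Il22ra1 highest (0.77 and 0.72). Set beside these, the gamma chain receptors had 3 of 8 lower and a median of -0.67. Over all gene areas 16.0% were at least 2-fold lower and 2.94% higher, with a median of -0.27. The share lower was 21.1% among areas of at least 3000 bp with mean 5hmC in the range of the receptors. With median-ratio factors and library means the medians were 0.36 and 0.55 for the cytokines, -0.70 and -0.52 for signalling and -0.26 and -0.07 for the other receptors, of which 6 and 5 were then at least 2-fold lower and 0 and 2 higher. Of the signalling genes 4 and 3 were then lower, and the median of both partner chains turned from -0.36 to 0.02 with library means. Over all gene areas these 2 scalings gave 10.1% and 6.36% lower, and 5.28% and 8.97% higher. For Th1 and Th2 alone the medians were 0.27 for the cytokines (1 of 8 at least 2-fold higher, 0 lower), -0.69 for signalling (3 of 10 lower, 0 higher), -0.02 for the partner chains and -0.35 for the other receptors (8 of 33 lower, 0 higher). All gene areas then had a median of -0.23, with 14.1% at least 2-fold lower and 999 of 28159 higher.

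The 5mC signal was 1.3 or less at all 8 receptors, while the medians of the 5mC libraries over all gene areas were 0.6 to 0.7. It ran from 0.2 to 0.4 at Il2rg, 0.6 to 1.1 at Il2rb, 0.7 to 0.9 at Il2ra, 0.6 to 0.9 at Il15ra, 0.4 to 0.6 at Il7r, 1.0 to 1.3 at Il4ra, 0.5 to 0.8 at Il21r and 0.9 to 1.3 at Il9r. The receptors thus lay on both sides of the middle of their libraries. Of gene areas above the filter, 72.6% to 79.8% lay at or below Il4ra and 61.3% to 79.8% at or below Il9r. At or below Il2rg lay 4.8% to 24.1%, and at or below Il7r 24.8% to 33.1%. None of the 8 differed 2-fold from naive in the mean of the 4 libraries, against 2.07% of all gene areas lower and 0.799% higher, and the median was -0.12 for the receptors and -0.11 for all. With library means both medians turned to 0.01 and 0.02. Il2rg had its lowest 5mC, 0.2, in naive cells and 0.4, 0.4, 0.3 and 0.4 in Th1, Th2, iTreg and Th17 cells, so its direction was opposite to that of its 5hmC. Il2rb had 1.1 in naive cells, 0.9 in Th1, 0.6 in Th2, 1.1 in iTreg and 0.7 in Th17 cells. Its 5mC was lowest in Th2, where its 5hmC was highest, and next lowest in Th17, the label of its lowest 5hmC. For the mean of the 4 libraries Il4ra, Il9r, Il15ra and Il7r were below naive in both marks (5mC -0.24, -0.36, -0.29 and -0.01). Il15ra in 5hmC and Il7r in 5mC turned with the scaling. Il2ra was above naive in both marks (5mC 0.15), while Il21r rose in 5mC (0.18) and fell in 5hmC. Values are rounded to 1 decimal, which is coarse at such levels, and in Th17 cells the 5mC signal of every receptor was below input DNA (0.17 to 0.42 of it). Whether the 5mC antibody enriched over input cannot be read from values whose scaling is unknown.

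**Figure D4:**
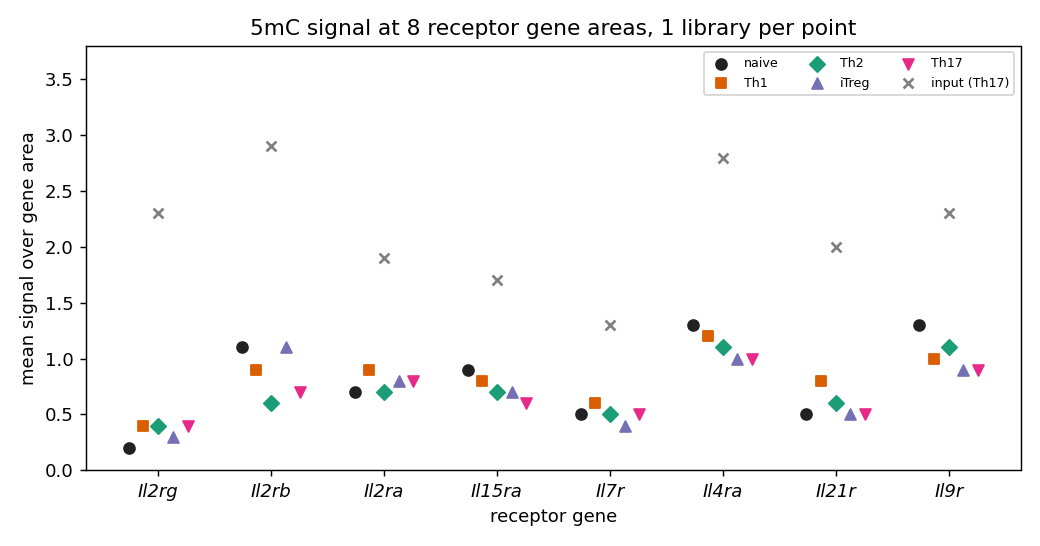
5mC signal of the 8 receptor gene areas (mean signal per gene area, linear axis from 0), 1 point per library, with the input library of Th17 cells as grey crosses. Every 5mC point lies at 1.3 or less and below the input cross of its gene.

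With the control libraries of Th17 cells, the 5hmC signal of the library labelled Th17 was above both at every receptor. Over all gene areas the medians were 9.9 in that 5hmC library, 0.8 in IgG and 1.7 in input, so the 5hmC library stood higher as a whole. The share of all gene areas above both controls was not computed. The IgG signal was 0.1 at Il2rg and Il7r, 0.3 at Il15ra, 0.7 at Il4ra and Il9r, 0.8 at Il2rb, 1.2 at Il21r and 2.0 at Il2ra, and input ran from 1.3 at Il7r to 2.9 at Il2rb. 5hmC exceeded input 3.3-fold at Il9r, the least, and 29.2-fold at Il2ra, the most. It exceeded IgG 10.9-fold at Il9r and 16.0-fold at Il21r, and more at the other 6. These ratios compare libraries whose relative depth is unknown, and IgG and input were analysed here for Th17 cells only.

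The test that was run set 5hmC against 5mC over the 5 cell types, after the median gene area of each library was set to 0. It thus asks whether a receptor lay further above the median of its library, on the log2 scale, in 5hmC than in 5mC. In naive cells the quartiles over all gene areas were 0.4 and 1.1 for 5mC, and 5.4 and 23.3 for 5hmC. This unlike range was not adjusted for, so a larger distance is not a higher rank. Of the 8 receptors, 6 were called higher in 5hmC by limma (Benjamini-Hochberg, with 0.05 as the limit for adjusted p and 1 for the log2 difference), against 10.1% of all gene areas, and 0 lower, against 7.62%. These shares depend on the filter, which took the mean over both antibodies: with 5mC at 1.3 or less, all 8 receptors passed it through their 5hmC. Without the filter 6 of 8 were called higher and 0 lower, against 9.61% and 16.1% of 37544 gene areas. Il4ra had the largest difference, 2.43 (SE 0.18, adjusted p = 0.000127), and Il2rb and Il2ra followed with 2.01 (SE 0.25) and 1.96 (SE 0.187). Il21r, Il7r and Il2rg had 1.78, 1.59 and 1.38, with adjusted p from limma of 0.00135, 0.000565 and 0.00684. Il15ra, at 0.26 (adjusted p = 0.24 in limma), and Il9r, at -0.36 (adjusted p = 0.167 in limma), did not pass. The spread here is that between cell types, and every call rests on 5 pairs of libraries. In the same limma fit 2 of the 8 cytokine genes were called higher in 5hmC (Il2 and Il21) and 1 lower (Tslp), as were 6 of 10 signalling genes higher, led by Cish at 2.92, and 12 of 33 other cytokine receptors higher, with 0 lower in both lists. These lists were counted with the filter only.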

How the data were processed

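The submitters' processing notes name CASAVA 1.7.0 and build mm9; how reads were aligned, extended, filtered for duplicates and scaled is not given in the sources used here. Deposited by the authors was 1 table of signal values, a mean per gene area rounded to 1 decimal, so read depth is unknown and no counting interval could be computed. Columns were matched by the sample number in the titles, and 0 columns were unused. Start and end were taken as inclusive: of 31692 gene identifiers found in the RefSeq table (GRCm38.p6), 14110 spans were equal and 261 differed by 1. Of repeated symbols the row with the highest mean was kept (208 rows left out), and promoter windows of chromosome 18 were not used. Differences are log2(signal + 0.2). Background counts used the 28159 gene areas with a mean of at least 3.31 (25th percentile) over the 10 5mC and 5hmC libraries, and a 2-fold rule. For 5hmC against 5mC, limma 3.58.1 (R 4.3.3) was run with trend, cell type as block, Benjamini-Hochberg; it was tested on simulated data. Other steps used Python 3.11.15 and pandas 2.3.3. The members, lists and tests were chosen with earlier results of these data known. Named were the 8 members, the 2 highest and 2 lowest of each list, the 2 most similar profiles, and neighbours (3 each side); neighbours and markers described singly, and list genes named beside their count, were chosen after their values were seen. Some items of these lists are not reported here. Alternatives changed pseudocount, scaling, filter, fold rule, IgG subtraction, block and libraries used.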

Additional observations from a re-analysis of the deposited data

Results flagged for a closer look

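Il2rb and Il15ra lay above naive in some differentiated 5hmC libraries and below it in others, as log2 differences of single libraries that share the naive library. Il2rb was above in 3 and below in 1, Il15ra above in 2 and below in 2. At their extremes, Il2rb had 0.79 in Th2 and -0.34 in the library labelled Th17, and Il15ra had 0.28 and -0.29 in the same order. Each is 1 library, so these differences were not tested, and the values below naive turned with the scaling: Il15ra to 0.01 with median-ratio factors and 0.22 with library means, and Il2rb to 0.17 with library means.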

How the results depend on the processing

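Scaling mattered most. With median-ratio factors, receptors at least 2-fold lower in 5hmC than naive numbered 0 in Th1 and 1 in Th2, and for the mean of the 4 libraries 2 in place of 3. Division by library means gave 0 in Th1, 1 in Th2, 1 in the library labelled iTreg, 2 in that labelled Th17 and 1 for the mean, with 1, 2 and 1 at least 2-fold higher in Th1, Th2 and the library labelled Th17. The background moved too: for the mean, 16.0% of all gene areas were lower as deposited, 10.1% with median-ratio factors and 6.36% with library means. The shares higher were 2.94%, 5.28% and 8.97%. Shares of all gene areas at 2-fold were not computed for rescaled single libraries, a pseudocount of 1, IgG subtraction or single left-out libraries. Receptor counts under those settings therefore cannot be set against other gene areas. A pseudocount of 1 left 1 lower in Th2. A rule of 1.5-fold gave 4 lower (32.9% of all gene areas) and 1 higher (11.2%) in Th1, 2 higher (12.8%) in Th2, and 5 lower (33.5%) and 1 higher (9.87%) for the mean. With Th1 and Th2 alone the mean gave 1 lower (Il21r), against 14.1% of all gene areas. Leaving out single differentiated libraries gave 2 to 3, the 2 without that labelled iTreg, where Il7r no longer passed. IgG subtraction changed no count. In 5mC all alternatives gave 0 receptors at 2-fold. In limma 6 receptors were called higher in 5hmC under every alternative, including the fit without cell type as a block and each left-out pair, except with a pseudocount of 1, which gave 5 and put Il2rg at 0.88. Over these alternatives 8.47% to 12.5% of the gene areas tested were called higher and 5.37% to 16.1% lower. No replicate numbers exist in the labels, so cell type is the only pairing. The background shares limited to long gene areas, those at 1.5-fold and the pathway lists for Th1 and Th2 alone were added after the data were seen. Unknown depth and rounding limit all 5mC ratios.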
